A study of Mus musculus with 16 samples.

Results

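TRAV4, named Vα11 in the older nomenclature, is a family of variable (V) segments of the mouse T cell receptor (TCR) α chain locus. Its rearrangements were taken from the TCRα tables of unsorted CD8 T cells as every CDR3 nucleotide sequence whose best-scoring V hit was a TRAV4, TRAV4D or TRAV4N segment. The rule found 3306 such sequences, carried by 29106 reads, among the 78671 sequences of the 8 unsorted libraries (the 16 libraries of the whole series held 83992). Themis+/+ and Themis-/- mice each gave 2 libraries of SP CD8 thymocytes and 2 of CD8 T cells from LN, which makes 8 in 4 groups. Both genotypes carried the Foxp3-GFP reporter on a C57BL/6 background, and the Themis-/- line derived from a B6.129S stock with a germline Themis knockout allele. No age, sex or treatment was given, and whether a library holds 1 mouse or pooled mice differs between the sources, since the design text speaks of individual mice and the methods of pooled lymph nodes. P-values therefore measure the spread between libraries, whatever its origin.

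A TCR α chain is made by joining 1 V segment to 1 J segment (TRAJ), with loss of a few bases at either end and random addition of others between them. The join forms CDR3, the loop that lies over the peptide in the groove of the MHC molecule, while CDR1 and CDR2 come from the V segment alone. An α locus can rearrange repeatedly, so that later joins use V segments farther from the J cluster and J segments farther from the V cluster. In C57BL/6 mice long blocks of V segments are repeated, and the copies in those blocks carry the letter D or N in their names. Vα11 chains are best known from CD4 T cells, where they occur in many receptors specific for cytochrome c peptides. Themis is an adaptor of TCR signalling, made in T cells and needed for normal thymocyte selection.

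The 8 segments found were TRAV4-4-DV10 (925 sequences), TRAV4D-4 (575), TRAV4-3 (568), TRAV4D-3 (534), TRAV4N-4 (337), TRAV4N-3 (194), TRAV4-2 (135) and TRAV4D-2 (38). All lie on the forward strand of chromosome 14 (GRCm38, GENCODE M21), each with 2 exons, of which the second codes for the V domain. The last 90 bases of that exon are printed below because their end opens every CDR3 of the family, with a capital at each base that differs from TRAV4-4-DV10, the segment with most sequences.
TRAV4-4-DV10 (chr14:53684088-53684177): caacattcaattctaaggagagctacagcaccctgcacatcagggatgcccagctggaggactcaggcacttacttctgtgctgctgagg
TRAV4-3 (chr14:53599321-53599410): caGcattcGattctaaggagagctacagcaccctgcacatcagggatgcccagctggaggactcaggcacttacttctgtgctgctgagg
TRAV4-2 (chr14:53418784-53418873): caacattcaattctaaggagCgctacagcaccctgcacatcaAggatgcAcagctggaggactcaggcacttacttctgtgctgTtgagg
TRAV4D-4 (chr14:52991300-52991389) and TRAV4N-4 (chr14:53302470-53302559): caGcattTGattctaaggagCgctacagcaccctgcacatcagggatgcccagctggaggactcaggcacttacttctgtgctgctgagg
TRAV4D-3 (chr14:52900381-52900470) and TRAV4N-3 (chr14:53211318-53211407): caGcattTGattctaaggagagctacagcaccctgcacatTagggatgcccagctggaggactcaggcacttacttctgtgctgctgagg
TRAV4D-2 (chr14:52711313-52711402): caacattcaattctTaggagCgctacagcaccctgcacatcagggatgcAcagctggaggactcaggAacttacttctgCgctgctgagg

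The D and N copies had 0 mismatches over the 279 bases of the V exon, and all 534 TRAV4D-3 and all 575 TRAV4D-4 sequences were deposited with the N copy as an equal hit. Reads listed with both copies therefore cannot be assigned to either. All 194 TRAV4N-3 and all 337 TRAV4N-4 sequences were listed with the N copy alone as best hit, and the first exon was not compared. Below, the copies are given together as TRAV4D-3/N-3 and TRAV4D-4/N-4 unless stated. The family falls into pairs by sequence. TRAV4-3 differed from TRAV4D-3 at 7 bases of the V exon, TRAV4-4-DV10 from TRAV4D-4 at 8 and TRAV4-2 from TRAV4D-2 at 7, whereas TRAV4-3 differed from TRAV4-4-DV10 at 30. TRAV4D-2 is annotated as a pseudogene, and of its 38 sequences 11 opened like its own germline and 20 like TRAV4-2. Its 326 reads were kept as listed.

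Library depth ranged from 57455 to 146191 reads and from 4357 to 16670 sequences, of which the family held 1411 to 5006 reads and 113 to 732 sequences. Themis-/- LN library 1 was the smallest for the family in both. Invariant NKT-type rearrangements (TRAV11 or TRAV11D with TRAJ18) made up 0 to 0.419% of reads, the MAIT-type rearrangement (TRAV1 with TRAJ33) 0 to 0.0424%, and rearrangements whose best V hit was a delta segment 0.193% to 1.86%. The tables hold TCR reads only, so neither the Themis genotype nor CD8 expression could be checked in them.

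The sequences had a feature that bears on every count of CDR3s. In 1498 of the 3306 family sequences (45.3%) the J part, outside bases that germline V also covers, carried a G where the germline J has a T, and such changes were 70.3% of the family's 2522 J substitutions. By library the share was 42.4% to 52.7% of family sequences and 24.2% to 39.0% of family reads. Other V segments of the same libraries had 41.2% to 46.2% of sequences, and the sorted Vα3.2 libraries of the series had 0.684% to 3.57%. Of these changes 98.6% lay in the last 12 bases of the CDR3, with 37.2% at the fifth base from its end alone. For 74.3% of the changed sequences the unchanged sequence was in the same library, and it had more reads in 84.0% of those cases. Putting the bases back merged the 3306 sequences into 2158. The origin of the changes was not tested, and values that move most when they are put back are given both ways.

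**Figure D1:**
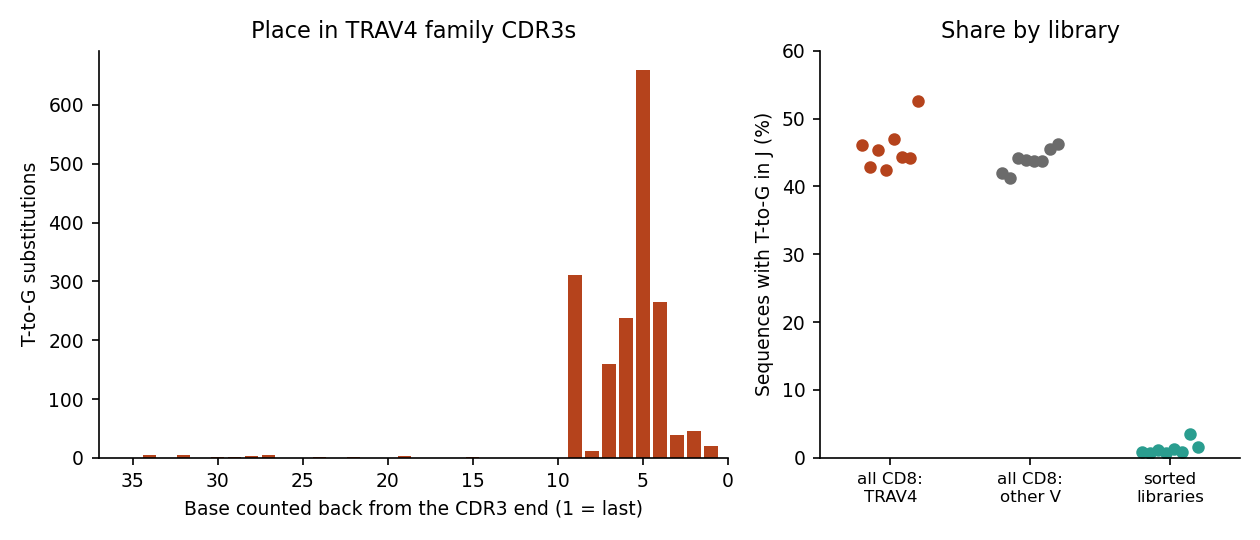
T-to-G differences from the germline J segment. Left, number of substitutions in TRAV4 family CDR3s (vertical axis) by base counted back from the CDR3 end (horizontal axis), with the highest bar, 37.2% of them, at base 5. Right, share of sequences with such a change (%), 1 point per library, for TRAV4 and for other V segments in the unsorted libraries and for all sequences of the sorted Vα3.2 libraries, which lie at 0.684% to 3.57% against 42.4% to 52.7% for TRAV4.

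TRAV4 was a mid-sized family in CD8 T cells, and no comparison of its reads between genotypes or tissues passed the test. It ranked 9 of 26 V families by mean share of reads (3.44%). It held 3.73% and 4.88% of reads in Themis+/+ SP CD8 thymocytes and 3.18% and 4.32% in Themis-/- SP CD8 thymocytes. In LN it held 3.74% and 2.71% in Themis+/+ and 2.12% and 2.87% in Themis-/- libraries. The lowest value was in Themis-/- LN, where the mean was 2.49% ± 0.535 (SD, n = 2), against 4.30% ± 0.809 in Themis+/+ thymocytes. Only the tissues of Themis-/- mice did not overlap.

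In edgeR's quasi-likelihood test on reads per V segment, with the family as 1 row, the log2 fold change of Themis-/- over Themis+/+ was -0.38 (SE 0.31, adjusted p = 0.545) in LN and -0.12 (SE 0.30, adjusted p = 0.935) in the thymus. Without Themis+/+ LN library 1 the LN value was -0.01. The share of all 107 rows that passed an adjusted p of 0.05 was 3.74% in LN (7.48% with DESeq2) and 0.0% in the thymus. For LN over thymus the change was -0.34 (SE 0.31, edgeR adjusted p = 0.966) in Themis+/+ and -0.60 (SE 0.31, adjusted p = 0.279) in Themis-/- mice, where 0.0% and 2.8% of rows passed (4.67% with DESeq2 in Themis-/- mice). The genotype effect did not differ between the tissues past the threshold (interaction -0.27, SE 0.43, edgeR adjusted p = 0.928, 0.935% of rows called).

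Counted as distinct sequences, the family was smaller in LN than in thymus in both genotypes, though in Themis+/+ not with the T-to-G changes put back. It made up 4.39% and 4.92% of sequences in Themis+/+ thymocytes and 4.09% and 4.55% in Themis-/- thymocytes. In LN it made up 4.24% and 3.49% in Themis+/+ and 2.59% and 3.82% in Themis-/- libraries. As deposited, the groups did not overlap in either genotype. By reads, 16.7% of the 114 V segments were lower in LN without overlap in Themis+/+ and 28.9% in Themis-/- mice. The same share by distinct sequences is not given here, so how common this order was among V segments is not known. With the T-to-G changes put back, Themis+/+ LN library 1 (4.24%) lay above Themis+/+ thymus library 1 (4.16%), while the Themis-/- tissues did not overlap (2.73% and 3.49% against 4.04% and 4.42%). As deposited, the mean difference was -0.950 percentage points, with p = 0.0556 in an exact two-sided permutation test within genotypes, the smallest p that this design allows.

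Over the 8 libraries, the V segments whose log2 share of reads moved most like the family's were TRAV15N-1 (Pearson r = 0.875, Spearman rho = 0.929), TRAV13D-3 (0.850 and 0.905) and TRAV13-3 (0.838 and 0.595), of 97 segments compared. Without the 2 libraries farthest from the family's median, r was 0.740, 0.842 and 0.740. These shares come from the same libraries and add up to 100%, and 18.6% of the segments had r above 0.5, with a median r of 0.0471.

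Within the family, TRAV4-4-DV10 and TRAV4D-4/N-4 were used most, and TRAV4-2 and TRAV4D-2 had the fewest sequences. TRAV4-4-DV10 took 24.7% to 46.4% of the family's reads. Its share of all reads was 1.20% and 1.4% in Themis+/+ thymocytes, 0.787% and 1.20% in Themis-/- thymocytes, 1.05% and 0.882% in Themis+/+ LN and 0.982% and 0.741% in Themis-/- LN. TRAV4-4-DV10 therefore varied by less than 2-fold over all libraries, and TRAV4D-4/N-4 exceeded it in both Themis-/- thymus libraries. It is also able to rearrange to the δ chain, as its name records.

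TRAV4-3 was the member whose reads were lower in Themis-/- than in Themis+/+ libraries without overlap in both tissues. It held 0.499% and 0.836% of reads in Themis+/+ and 0.426% and 0.463% in Themis-/- thymocytes, and 0.771% and 0.352% in Themis+/+ against 0.217% and 0.254% in Themis-/- LN. The edgeR log2 fold changes were -1.25 in LN (SE 0.59, adjusted p = 0.229) and -0.50 in the thymus (SE 0.58, adjusted p = 0.838). TRAV4-3 thus did not pass the test on reads. When distinct sequences were counted with the T-to-G changes put back, the LN difference had the same size (-1.25, SE 0.37) and passed (edgeR adjusted p = 0.0446).

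TRAV4D-4/N-4 had the widest range of the larger members, from 0.159% of reads in Themis-/- LN library 1 to 1.65% in Themis-/- thymus library 2. It held 1.10% and 1.04% in Themis+/+ thymocytes, 0.839% in the other Themis-/- thymus library, 1.0% and 0.510% in Themis+/+ LN and 0.707% in the other Themis-/- LN library. Both LN libraries of Themis-/- mice were below both of their thymus libraries. Sequences listed under TRAV4D-4 had an LN over thymus log2 fold change of -1.71 in Themis-/- mice (SE 0.68, edgeR adjusted p = 0.176). Those listed under TRAV4N-4 alone were at -1.33 (SE 0.69, edgeR adjusted p = 0.362). Without Themis-/- LN library 2, TRAV4N-4 passed at -4.65 (edgeR adjusted p = 1.04e-05), and for Themis-/- over Themis+/+ LN at -4.18 (edgeR adjusted p = 4.81e-05). That call rests on Themis-/- LN library 1 alone, assumed to vary like the other groups.

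TRAV4D-3/N-3 ranged from 0.396% in Themis-/- LN library 1 to 1.20% in Themis+/+ thymus library 2. TRAV4-2 ranged from 0.057% to 0.538% with no order by group, its high libraries being Themis-/- thymus 1, Themis+/+ LN 2, Themis-/- LN 1 and Themis+/+ thymus 2. TRAV4D-2 did not exceed 0.078%.

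No member passed edgeR's test in any of the 5 comparisons (0 of 8 each), nor DESeq2's (0 of 8 each). With members apart, edgeR called 1.75% of the 114 segments for genotype in LN, 0.0% for genotype in the thymus, 0.0% and 2.63% for tissue in Themis+/+ and Themis-/- mice and 0.877% for the interaction. DESeq2 called 6.14%, 0.0%, 0.0%, 3.51% and 0.877%. At an unadjusted edgeR p of 0.05, TRAV4-3 passed for genotype in LN (17.5% of all segments) and TRAV4D-4 for tissue in Themis-/- mice (15.8%). In the other 3 comparisons 0 members passed at that p, beside 7.02% of segments for genotype in the thymus, 0.0% for tissue in Themis+/+ mice and 5.26% for the interaction.

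Where groups did not overlap, members were lower in Themis-/- and lower in LN, as many other segments were. TRAV4-3 alone was lower in Themis-/- LN (25.4% of segments), and TRAV4-3 and TRAV4D-3 were lower in Themis-/- thymocytes (23.7%). TRAV4-4-DV10, TRAV4D-2, TRAV4D-4 and TRAV4N-3, 4 of the 8, were lower in LN than in thymus of Themis+/+ mice (16.7%), and TRAV4-3 and TRAV4D-4 in Themis-/- mice (28.9%). No member was higher without overlap in the 4 comparisons, where 19.3%, 21.9%, 13.2% and 15.8% of segments were, in the same order. The median log2 fold change of the 8 members was -0.28 for genotype in LN and 0.02 in the thymus, and -0.28 and -0.32 for tissue in Themis+/+ and Themis-/- mice, beside -0.09, 0.08, 0.07 and -0.12 over all segments.

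**Figure D2:**
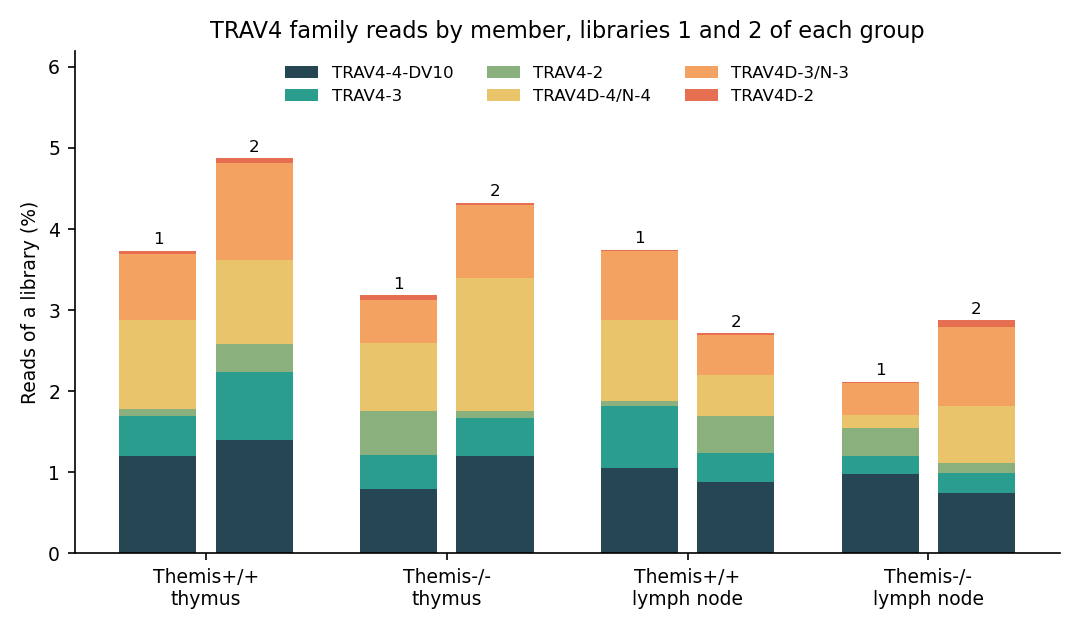
Share of library reads (%, vertical axis) taken by each TRAV4 member in libraries 1 and 2 of each of the 4 groups, stacked so that the full bar height is the family's share. The bars run from 2.12% in Themis-/- LN library 1 to 4.88% in Themis+/+ thymus library 2, and Themis+/+ and Themis-/- bars overlap within each tissue.

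The J partners set TRAV4 apart from other V segments of the same libraries. TRAV4 was joined more often to TRAJ50 and TRAJ49, at the V-proximal end of the J cluster, and less often to TRAJ5, TRAJ7, TRAJ23, TRAJ18 and TRAJ13. In edgeR's test on distinct sequences, with the library as a block, 7 of 43 TRAJ segments passed (16.3%), 2 used more (4.65%) and 5 used less (11.6%). The germline J segments are printed because they give the residues these CDR3s end with. The capital is the T most often replaced by G in family sequences, and TRAJ5 and TRAJ13 have none.
TRAJ50 (chr14:54167590-54167652): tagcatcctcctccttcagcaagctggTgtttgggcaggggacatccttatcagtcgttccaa
TRAJ49 (chr14:54168686-54168747): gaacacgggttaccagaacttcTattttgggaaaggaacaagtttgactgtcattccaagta
TRAJ5 (chr14:54213777-54213838): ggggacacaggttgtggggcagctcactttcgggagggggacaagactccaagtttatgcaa
TRAJ7 (chr14:54211470-54211528): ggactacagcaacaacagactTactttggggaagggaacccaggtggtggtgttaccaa
TRAJ23 (chr14:54196081-54196140): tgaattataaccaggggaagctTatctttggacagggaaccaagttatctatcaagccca
TRAJ18 (chr14:54200777-54200842): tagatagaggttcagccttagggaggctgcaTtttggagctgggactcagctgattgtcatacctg
TRAJ13 (chr14:54205741-54205797): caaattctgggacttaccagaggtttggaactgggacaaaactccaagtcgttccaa

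TRAJ50 made up 6.02% of family sequences against 2.42% of other sequences. By library the family's share was 6.56% and 4.73% in Themis+/+ thymocytes, 6.77% and 3.26% in Themis-/- thymocytes, 6.18% and 9.45% in Themis+/+ LN and 9.73% and 6.76% in Themis-/- LN. It was above the other V segments in 8 of 8 libraries, with a log2 fold change of 1.39 (SE 0.23, edgeR adjusted p = 4.98e-05).

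TRAJ49 made up 7.35% of family sequences against 4.07% of others. The family's share was 8.20% and 6.67% in Themis+/+ thymocytes, 5.38% and 5.07% in Themis-/- thymocytes, 8.80% and 6.97% in Themis+/+ LN and 14.2% and 9.66% in Themis-/- LN. It too was above the others in 8 of 8 libraries, at 0.97 on the log2 scale (SE 0.23, edgeR adjusted p = 0.00198).

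TRAV4-4-DV10 carried most of this. In 8 of 8 libraries it was joined to TRAJ49 and to TRAJ50 more often than other V segments were, in 12.5% to 33.3% (median 14.4%) and in 5.30% to 28.1% (median 12.6%) of its sequences. Leaving TRAV4-4-DV10 out, the remaining members were above other V segments for TRAJ50 in 8 of 8 libraries (2.47% to 6.72%, median 3.68%) but for TRAJ49 in only 3 of 8 (2.00% to 13.6%, median 3.68%). Over all libraries TRAJ49 was in 15.6% of TRAV4-4-DV10 sequences, 5.81% of TRAV4-3, 4.61% of TRAV4D-4/N-4 and 2.47% of TRAV4D-3/N-3. TRAV4-4-DV10 ranked 2 of the 98 V segments with at least 100 sequences by its share of TRAJ50 and TRAJ49 together (27%). Segments outside the family ranked beside it, with TRDV2-2 (28.1%) above and TRDV1 (25.4%), TRAV19 (24.7%) and TRAV13-4-DV7 (22.6%) below. TRAV4-3 was at 11.97%, TRAV4D-4/N-4 at 8.11%, TRAV4D-3/N-3 at 5.63% and TRAV4-2 at 4.44%. High use of TRAJ50 and TRAJ49 was thus neither common to all members nor limited to the family. The rank of TRAV4-4-DV10 and the split without it were computed after the values above were seen.

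TRAJ5 was not found in any of the 3306 family sequences, although 430 of 75358 other sequences used it (0.571%). A count of 0 allows a share of up to 0.0907% over all 8 libraries, so that TRAJ5 was at least 6.29-fold lower in the family (edgeR adjusted p = 0.000758). This limit covers counting error only. TRAJ7 was in 25 family sequences (0.756%) against 2.70% of others, a log2 fold change of -1.90 (SE 0.41, edgeR adjusted p = 0.00100). TRAJ50, TRAJ5 and TRAJ7 passed in 15 of 15 other settings.

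TRAJ23 was at 3.02% of family against 5.20% of other sequences (log2 fold change -0.83, SE 0.24, edgeR adjusted p = 0.0133). TRAJ18, the J segment of the invariant NKT chain, was at 0.847% against 2.01% (-1.25, SE 0.39, edgeR adjusted p = 0.0217). TRAJ13 was at 0.907% against 2.05% (-1.19, SE 0.38, edgeR adjusted p = 0.0247). On reads in place of sequences, TRAJ49 (0.95, edgeR adjusted p = 0.227), TRAJ23, TRAJ18 and TRAJ13 kept their direction but did not pass.

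**Figure D3:**
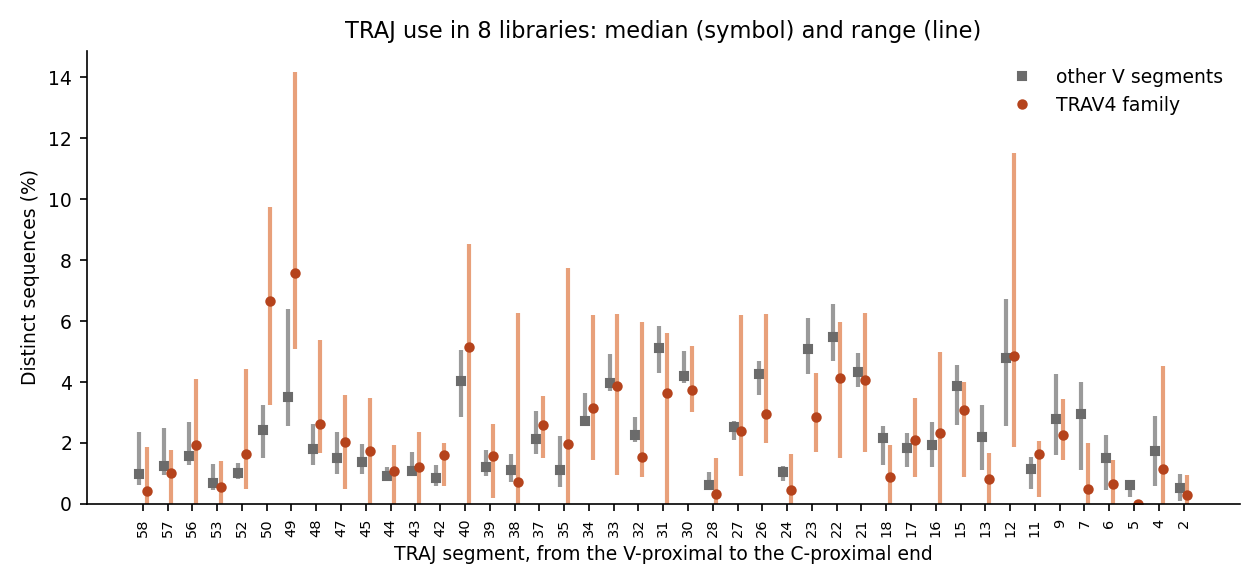
Share of distinct sequences (%, vertical axis) joined to each TRAJ segment, ordered along the horizontal axis from the V-proximal to the C-proximal end, for the TRAV4 family and for all other V segments of the 8 unsorted libraries. The family stands above the others at TRAJ50 (6.02% against 2.42%) and TRAJ49 (7.35% against 4.07%) and is at 0 at TRAJ5.

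Between groups, the J use of the family differed at few segments. Of 28 TRAJ segments tested, edgeR called 1 for genotype in LN (3.57%), 3 for tissue in Themis-/- mice (10.7%), and 0 (0.0%) for genotype in the thymus, for tissue in Themis+/+ mice and for the interaction. The 4 are named after their values were seen. TRAJ12 made up 11.5% and 8.70% of family sequences in Themis-/- LN against 1.87% and 3.98% in Themis+/+ LN, a log2 fold change of 1.91 (SE 0.57, edgeR adjusted p = 0.0303). It was called in 7 of 17 other settings and lost in the rest, among them the fit on reads and the fits without either Themis-/- LN library or without Themis+/+ LN library 1.

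In Themis-/- mice, TRAJ40 was in 0 of the 113 family sequences of LN library 1, which allows a share of up to 2.65%, and at 1.45% in LN library 2, against 5.58% and 8.51% in thymocytes (edgeR adjusted p = 0.00930). TRAJ35 was at 1.77% and 7.73% in LN against 0.398% and 0.543% in thymocytes (log2 fold change 3.51, SE 1.01, edgeR adjusted p = 0.00986). TRAJ49 was at 14.2% and 9.66% in LN against 5.38% and 5.07% (1.21, SE 0.36, edgeR adjusted p = 0.00986). Other V segments of these libraries were also higher at TRAJ49 in LN, with 3.49% and 3.42% against 2.55% and 2.81%. None of these 3 TRAJ segments passed for the family on reads or with the T-to-G changes put back. They rest on 113 and 207 family sequences in the Themis-/- LN libraries.

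Family members differed in where along the J cluster they joined, and the 2 members nearest the J cluster joined its V-proximal end most. The J segments are numbered downwards from the V-proximal end, so a high TRAJ number marks a join near the V cluster. The mean TRAJ number was highest for TRAV4-4-DV10, the member nearest the J cluster, at 41.9 (mean of 8 library means, range 40.3 to 43.8). TRAV4-3, the next member upstream, was at 35 (32.5 to 40.3). TRAV4D-4/N-4 was at 27.1 (23.5 to 31.9) and TRAV4D-3/N-3, whose copies lie farther upstream too, at 26.1 (21.9 to 30.1). TRAV4-2, which lies between TRAV4-3 and the N copies, was at 25.9 and TRAV4D-2, with 2 to 8 sequences per library, at 28.5.

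Near-identical members were therefore joined differently. TRAV4-4-DV10 exceeded TRAV4D-4/N-4, from which it differs at 8 bases, by 14.9 TRAJ numbers (SD 2.82, n = 8 libraries), in 8 of 8 libraries. TRAV4-3 exceeded TRAV4D-3/N-3, from which it differs at 7 bases, by 8.96 (SD 4.40), again in 8 of 8. TRAV4-4-DV10 exceeded TRAV4-3 by 6.91 (SD 1.54) in 8 of 8. Each of these gave p = 0.00781 in an exact two-sided sign-flip permutation test over the 8 libraries, the smallest it can give (adjusted p over the 5 pairs compared also 0.00781). The pairs were chosen after the values were seen.

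Among sequences of 1 copy pair, those listed under the N copy alone and those listed under both copies also differed. TRAV4N-4 alone minus TRAV4D-4 with its tie was -6.41 TRAJ numbers, and TRAV4N-3 alone minus TRAV4D-3 with its tie -7.10, each below 0 in 8 of 8 libraries (exact sign-flip permutation p = 0.00781, adjusted 0.00781). With the T-to-G changes put back the differences were -5.15 (above 0 in 2 of 8 libraries, exact permutation p = 0.0313) and -7.02 (above 0 in 1 of 8, exact permutation p = 0.0156). What decides the listing was not tested.

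Against the 98 V segments with at least 100 sequences, TRAV4-4-DV10 ranked 8 by mean TRAJ number over all its sequences, TRAV4-3 19, TRAV4D-3/N-3 50, TRAV4D-4/N-4 52 and TRAV4-2 60. The family as a whole had a mean TRAJ number of 32.2 against 28.6 for other V segments, a difference of 3.59 (SD 1.71, n = 8) that was above 0 in 8 of 8 libraries.

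**Figure D4:**
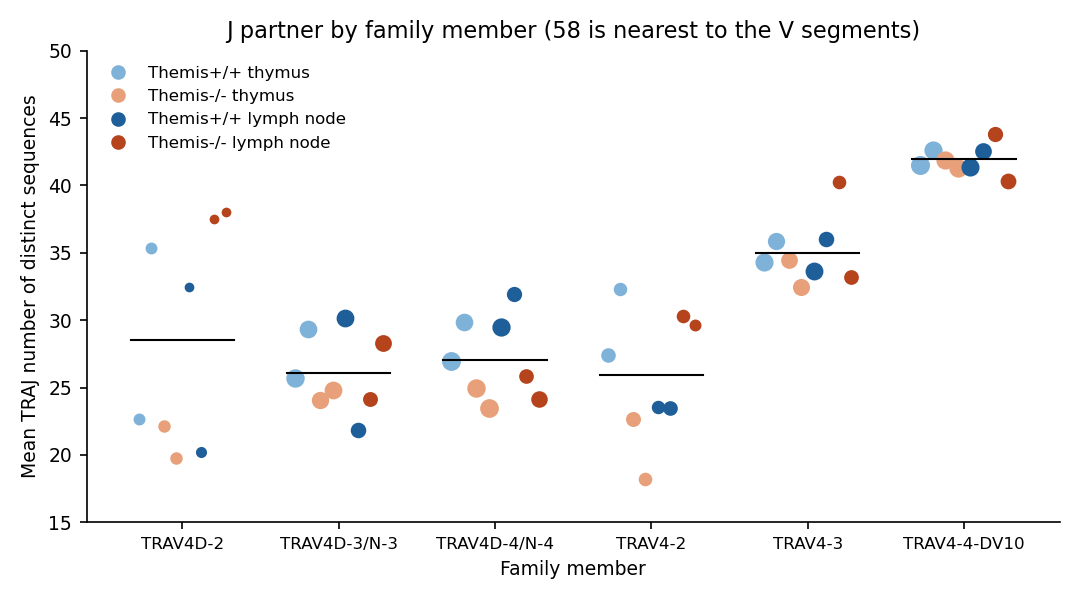
Mean TRAJ number of distinct sequences (vertical axis) for each TRAV4 member (horizontal axis), 1 point per library, with D and N copies together. TRAV4-4-DV10 lies between 40.3 and 43.8 in every library, above TRAV4D-4/N-4 (23.5 to 31.9) and TRAV4D-3/N-3 (21.9 to 30.1).

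The mean TRAJ number was lower in Themis-/- libraries, but no test of this could pass with 2 libraries a group. The family's mean TRAJ number was lower in Themis-/- than in Themis+/+ libraries without overlap in both tissues, by 3.32 in the thymus (30.3 ± 0.722 against 33.6 ± 1.88, SD, n = 2) and by 1.63 in LN (31.7 ± 2.00 against 33.3 ± 0.204), where the nearest libraries of the genotypes were at 33.07 and 33.14. Across both tissues the mean difference was -2.48 (exact permutation p = 0.0556, the smallest possible). Other V segments were lower by 4.80 and 3.52. Weighted by reads, the family's LN difference was 3.43 in the opposite direction.

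The CDR3s of the family were shorter, had fewer inserted bases and were more acidic than those of other V segments in each library. Mean length was 13.3 residues against 13.5 (difference -0.270, SD 0.0844, n = 8). Inserted bases, those between the stretches aligned to germline V and J, averaged 2.28 against 2.59 (difference -0.315, SD 0.135). Net charge averaged -0.150 against 0.448 (difference -0.598, SD 0.0511). All 3 were below the other V segments in 8 of 8 libraries, and these and the TRAJ number gave p = 0.00781 in an exact sign-flip permutation test (smallest possible, adjusted over 5 features 0.00977). Summed Kyte-Doolittle hydropathicity did not pass this test (2.26 against 2.32, difference -0.0565, SD 0.724, lower in 4 of 8, exact permutation p = 0.844). On the Eisenberg scale it did, with the family higher by 0.406 (exact sign-flip permutation p = 0.00781), so that this feature depends on the scale.

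The charge has a visible counterpart in the sequence. The germline V ends in gctgctgagg in 7 of the 8 segments, which reads Ala-Ala-Glu after the CDR3's first residue. Glutamate stood at residue 4 in 42.5% to 53.4% of family sequences by library against 3.18% to 4.68% of others, and aspartate in 7.25% to 15.2% against 4.92% to 5.87%. CAAE opened 51.4% of TRAV4-4-DV10, 51.2% of TRAV4-3, 53.2% of TRAV4D-3 and 45.4% of TRAV4D-4 sequences. CAAD was more frequent in TRAV4-3 (18.8%) and TRAV4D-3 (18.4%) than in TRAV4-4-DV10 (6.59%) and TRAV4D-4 (6.09%). TRAV4-2, whose germline has gctgttgagg, opened with CAVE in 38.5% and with CAAE in 1.48% of its sequences.

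Between groups, hydropathicity was the feature of the family with the clearest order. Its mean over distinct sequences was 1.44 and 1.15 in Themis+/+ thymocytes, 2.45 and 1.98 in Themis-/- thymocytes, 2.00 and 2.5 in Themis+/+ LN, and 3.29 and 3.27 in Themis-/- LN. Themis-/- libraries were above Themis+/+ libraries in each tissue and LN libraries above thymus libraries in each genotype, without overlap. The differences were 0.925 for genotype in the thymus, 1.03 for genotype in LN, 0.954 for tissue in Themis+/+ and 1.063 for tissue in Themis-/- mice. Each has an exact permutation p of 0.3333, the smallest for 2 against 2 libraries. Across both tissues the genotype difference was 0.979 and across both genotypes the tissue difference 1.01, each with an exact permutation p of 0.0556, again the smallest possible.

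Among the 13 V families with at least 30 sequences in every library, 46.2% had Themis-/- above Themis+/+ thymocytes in hydropathicity, 53.8% had this in LN, and 15.4% had LN above thymus in Themis+/+ and 15.4% in Themis-/- mice. Only TRAV4 showed all 4 orders (7.69%). Pooled, the other V segments showed only the thymic genotype order, with the nearest libraries at 2.48 in Themis-/- and 2.46 in Themis+/+ thymocytes. They narrowly missed the genotype order in LN, with 2.75 and 2.19576 in Themis-/- against 1.86 and 2.19645 in Themis+/+ libraries. The order in TRAV4 was also present in the stretch from residue 4 to the fifth residue from the end, which leaves out the last 12 bases, at -8.14 and -8.17 in Themis+/+ thymocytes, -7.55 and -7.57 in Themis-/- thymocytes, -7.76 and -7.59 in Themis+/+ LN and -6.77 and -6.40 in Themis-/- LN. Weighted by reads, however, the genotype difference in the thymus was -0.524. Net charge was higher in Themis-/- than in Themis+/+ libraries in both tissues as well (84.6% of V families in the thymus and 46.2% in LN).

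**Figure D5:**
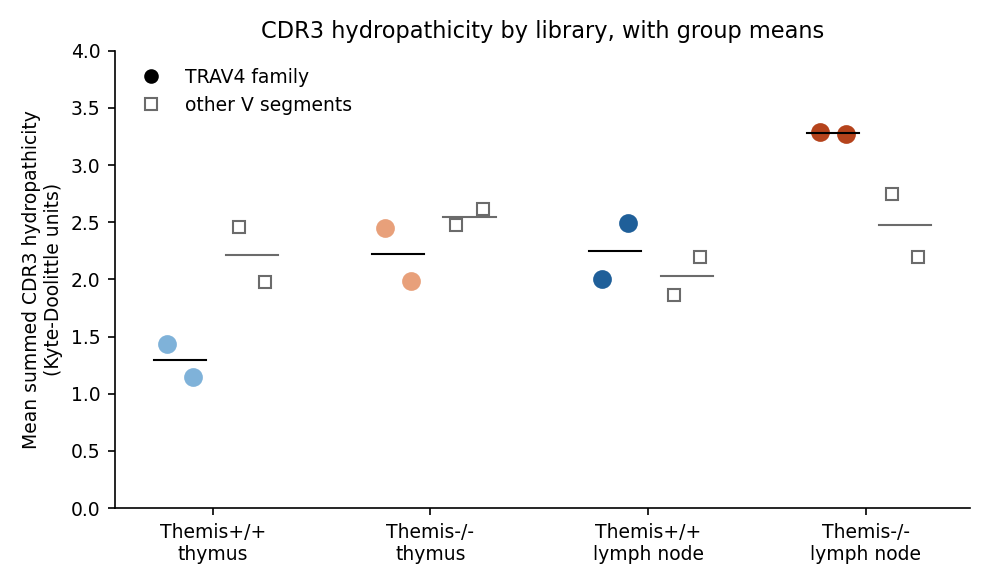
Mean summed Kyte-Doolittle hydropathicity of CDR3s over distinct sequences (vertical axis), 1 point per library, for TRAV4 (filled circles) and all other V segments (open squares) in the 4 groups. TRAV4 runs from 1.15 and 1.44 in Themis+/+ thymocytes to 3.27 and 3.29 in Themis-/- LN.

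Members differed in hydropathicity as well, from 1.26 in TRAV4-4-DV10 and 1.27 in TRAV4-3 to 2.83 in TRAV4D-4/N-4 and 4.0 in TRAV4-2 over all their sequences. The part of shifts between members in the order above was not tested. Family CDR3 length and inserted bases overlapped between genotypes in LN. In the thymus, inserted bases were lower in Themis-/- (2.26 ± 0.0149 against 2.43 ± 0.0648, SD, n = 2) without overlap (exact permutation p = 0.3333), and other V segments were lower too (2.52 against 2.70).

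Clone sizes in the family were most uneven in Themis-/- LN, mainly in library 1. Other V segments had the same genotype order of the 10 largest clones in LN. At an equal 1411 family reads, the expected number of distinct sequences was 499 and 338 in Themis+/+ thymocytes, 357 and 398 in Themis-/- thymocytes, 382 and 196 in Themis+/+ LN and 113 and 192 in Themis-/- LN. Both Themis-/- LN libraries thus lay below both Themis+/+ LN libraries, as deposited library 2 by only a few sequences. By the exponential of Shannon entropy, a number of clones that weighs them by size, the genotypes overlapped in LN. It was 281 and 107 in Themis+/+ against 44.9 and 111 in Themis-/- LN. The 10 largest clones took 8.97% and 17.1% of family reads in Themis+/+ thymocytes, 23.7% and 12.2% in Themis-/- thymocytes, 15.3% and 28.2% in Themis+/+ LN and 55.2% and 29% in Themis-/- LN. Genotypes did not overlap in LN and overlapped in the thymus. With the T-to-G changes put back, the expected numbers in LN were 247 and 131 in Themis+/+ and 77 and 110 in Themis-/- libraries, and the 10 largest clones took 19.1% and 40.6% against 64.2% and 48%. With 2 libraries a group the exact permutation p is 0.3333 at least, and without Themis-/- LN library 1 the LN difference in the 10 largest clones is 7.22 percentage points. In LN the 10 largest clones of other V segments took 5.003% and 4.24% of their reads in Themis-/- against 2.35% and 4.18% in Themis+/+ libraries. In the thymus they took 4.81% and 3.10% against 1.64% and 2.55%. The LN genotype order was therefore not particular to TRAV4, and whether it was stronger in the family was not tested. Fewer cells and fewer RNA molecules per cell cannot be told apart in these read counts.

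The largest family clone of each library, as deposited, shows which joins reached these sizes. Below, capitals mark the inserted bases, those between the stretches aligned to germline V and J.
Themis+/+ thymus 1, TRAV4D-4 with TRAJ11: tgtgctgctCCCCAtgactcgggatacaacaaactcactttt
Themis+/+ thymus 2, TRAV4-2 with TRAJ24: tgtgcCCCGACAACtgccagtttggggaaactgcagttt
Themis-/- thymus 1, TRAV4-2 with TRAJ43: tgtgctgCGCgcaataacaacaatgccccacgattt
Themis-/- thymus 2, TRAV4-4-DV10 with TRAJ42: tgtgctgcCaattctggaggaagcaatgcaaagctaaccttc
Themis+/+ LN 1, TRAV4-4-DV10 with TRAJ52: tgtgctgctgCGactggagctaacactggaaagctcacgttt
Themis+/+ LN 2, TRAV4-4-DV10 with TRAJ56: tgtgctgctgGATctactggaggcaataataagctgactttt
Themis-/- LN 1, TRAV4-4-DV10 with TRAJ50: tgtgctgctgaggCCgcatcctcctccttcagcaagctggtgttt
Themis-/- LN 2, TRAV4-4-DV10 with TRAJ43: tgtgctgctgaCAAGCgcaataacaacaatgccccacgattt

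They took 1.16% and 2.19% of family reads in Themis+/+ thymocytes, 9.46% and 1.64% in Themis-/- thymocytes, 3.07% and 4.75% in Themis+/+ LN and 9.78% and 5.12% in Themis-/- LN. All 4 LN clones and 1 of the 4 thymic clones used TRAV4-4-DV10. The TRAV4-2 clone of Themis-/- thymus library 1, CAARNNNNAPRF, had 440 reads and was found in no other library. The TRAV4-4-DV10 clone of Themis-/- LN library 1 had 138 reads, and its amino acid sequence was present in 4 libraries. None of the 8 carried a T-to-G change.

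Most family CDR3s were found in a single library. Of 2347 amino acid sequences 2043 were in 1 library, 213 in 2, 67 in 3, 14 in 4, 5 in 5 and 5 in 6. Both genotypes shared 120 of the 1684 thymic sequences (7.13%, or 12.4% of the Themis+/+ and 14.3% of the Themis-/- list) and 29 of the 845 LN sequences (3.43%, or 4.75% and 11%). Of the LN sequences, 16% in Themis+/+ and 16.7% in Themis-/- mice were also in the thymus of the same genotype. These shares depend on depth, which was lowest in Themis-/- LN. With the T-to-G changes put back, mean inserted bases were 2.82 in sequences of 1 library, 1.83 in those of 2 and 1.02 in those of 3 or more, and 18.8%, 30.1% and 50.5% had no inserted base. Sequences shared more widely thus had fewer inserted bases.

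The 5 most widely shared CDR3s were each in 6 libraries, and their largest nucleotide forms are printed with inserted bases in capitals. Substitutions inside the stretches aligned to germline stay in lower case. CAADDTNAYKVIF thus has tgtgctgcc where germline V has tgtgctgct, and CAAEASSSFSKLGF has gcgtcc where germline TRAJ50 has gcatcc.
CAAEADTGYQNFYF, TRAJ49: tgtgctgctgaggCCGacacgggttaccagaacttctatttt
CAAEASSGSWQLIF, TRAJ22: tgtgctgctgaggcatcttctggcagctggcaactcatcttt
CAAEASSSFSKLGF, TRAJ50: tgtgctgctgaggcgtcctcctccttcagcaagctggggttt
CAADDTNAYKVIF, TRAJ30: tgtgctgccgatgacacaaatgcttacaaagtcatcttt
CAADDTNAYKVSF, TRAJ30: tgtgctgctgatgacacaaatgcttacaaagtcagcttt

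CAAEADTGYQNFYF had 21 and 10 reads in Themis+/+ thymocytes, 10 and 2 in Themis-/- thymocytes, 11 and 0 in Themis+/+ LN and 0 and 52 in Themis-/- LN, from TRAV4-3, TRAV4-4-DV10 and TRAV4D-4. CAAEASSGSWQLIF was made by the D and N copies of TRAV4D-3 and TRAV4D-4, and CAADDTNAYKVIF by TRAV4-3 and TRAV4N-3. In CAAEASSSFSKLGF and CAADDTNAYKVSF every sequence carried a T-to-G change (13 of 13 and 7 of 7), and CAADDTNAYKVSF is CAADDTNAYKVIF but for that change. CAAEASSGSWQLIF carried none and had no inserted base. With the bases put back 7 sequences were in 5 or more libraries in place of 10.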

How the data were processed

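TCRα transcripts of sorted CD8 cells were amplified by rapid amplification of cDNA ends with a constant-region primer, without molecular identifiers, and clonotypes were extracted by the authors with MiXCR, whose version the sources do not state. The submitters' processing notes name CASAVA 1.4 and mm9. The authors deposited, per library, the read count of each CDR3 nucleotide sequence, not normalized, and its fraction of the library's reads, which equals count over total in all 16 libraries. Of the clone numbers, 13.9% to 16.9% are missing in the unsorted libraries. The sorted Vα3.2 libraries, 1 label field of which reads Va2.3, were used only for comparison. No coordinates are in the tables. Those printed come from GENCODE M21 (GRCm38), which also gave the V and J sequences.

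Reads per V segment (first hit, at least 10 reads in at least 2 libraries) were tested with edgeR 4.0.16 (quasi-likelihood, TMM, 8 libraries in 1 fit, Benjamini-Hochberg) in R 4.3.3, with DESeq2 1.42.0 as an alternative. J use was tested likewise on distinct sequences, with the library as a block for family against other V segments. Single values were compared by exact permutation tests (SciPy 1.17.1). The edgeR step was tested on simulated data. An inserted base is one between the stretches aligned to germline V and J, so that substitutions inside those stretches are not counted. A T-to-G change is a G at a germline J base T outside the part that germline V covers. Read counts set the precision, and intervals and floors (3 counts) cover counting error only, since PCR reads are not independent molecules.

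Libraries were grouped by their labels. Libraries of equal number showed no shared shift in V use: deviations of V shares from their group means correlated at -0.25 to 0.06 over 114 segments (pseudocount 0.5). Whether equal numbers mark the same mice or experiment cannot be told from this. Members, lists and tests were chosen with earlier results of these data known. Named were every member, the 3 V segments with the most similar shares, up to 5 TRAJ used more and 5 used less, the 5 CDR3s in most libraries and each library's largest clone. Putting back T-to-G changes, merging D and N copies and the crossed block were added after the data were seen.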

Additional observations from a re-analysis of the deposited data

Results flagged for a closer look

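The sorted Vα3.2 libraries entered no test above. TRAV9N-3 and TRAV9D-3 together made up 41.2% to 89.3% of their reads, lowest in Themis-/- thymus library 2. Of these 8 libraries, Themis-/- thymus library 2 held 6 TRAV4 reads of 22940 (0.0262%), above the limit of 0.0131% that a count of 0 allows. They were 2 TRAV4-4-DV10 clones, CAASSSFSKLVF with TRAJ50 (4 reads), whose nucleotide sequence was also in 3 unsorted libraries but listed there under TRAV5-4 or TRAV5D-4, and a TRAJ45 clone (2 reads) found in none of them. Themis-/- LN library 1 of the sorted cells held 2 TRAV4 reads, and the other 6 sorted libraries 0. The origin of these reads was not tested.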

How the results depend on the processing

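Of the alternatives that leave no library out, 341 values kept their direction and their side of the threshold or moved by less than the spread, 44 moved, 4 lost the threshold and 2 changed sign. The family's own read share passed in none of them. Together with the fits that leave a library out, its change for Themis-/- over Themis+/+ LN ranged from -0.65 to -0.01. For LN over thymus in Themis-/- mice it ranged from -0.87 to -0.33. The ends of both ranges came from fits that leave a library out. With library numbers as a replicate block the 5 family changes were -0.42, -0.11, -0.31, -0.61 and -0.30 (edgeR adjusted p 0.590, 0.954, 0.982, 0.337 and 0.936), and members called stayed at 0. The crossed pairing, run for genotype in LN and in the thymus and for tissue in Themis-/- mice, called 0 members in these 3. The cause of the moves below was not tested unless stated.

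The TRAJ calls of the family between groups depended on settings. For genotype in LN the count was 0 without TMM, without the filter, with the replicate block, with the compared groups only and on reads. For tissue in Themis-/- mice it was 1 with the replicate block and 0 with DESeq2, on reads and with T-to-G changes put back. Against other V segments, reads gave 1 TRAJ used more and 2 used less. For genotype in LN, 1 member was called on distinct sequences with T-to-G changes put back. The hydropathicity difference from other V segments was 0.0887 with T-to-G changes put back (exact permutation p = 0.719) and 0.406 on the Eisenberg scale (exact permutation p = 0.00781).

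Weighted by reads, CDR3 length differed by 0.349 residues between genotypes in LN, -0.0813 in the thymus, and between tissues by -0.0340 in Themis+/+ and 0.396 in Themis-/- mice. Over distinct amino acid sequences it differed by 0.00485 between genotypes in the thymus and 0.0747 between Themis+/+ tissues, and without single-read sequences by 0.0655 and 0.137. Hydropathicity weighted by reads differed by 1.70 (genotype in LN), -0.524 (genotype in the thymus), 0.624 and 2.85 (tissue in Themis+/+ and Themis-/- mice). It differed by 0.735 between genotypes in LN over distinct amino acid sequences and by 1.30 with T-to-G changes put back, and by 1.32 between Themis-/- tissues without single-read sequences. Inserted bases weighted by reads differed by -0.320 between genotypes in the thymus, where putting back T-to-G changes gave -0.108, and by 0.149 between Themis-/- tissues. TRAJ number weighted by reads differed by 3.43 (genotype in LN), -1.63 (genotype in the thymus) and 4.45 (tissue in Themis-/- mice). Net charge differed by 0.172 (reads) and 0.0592 (no single-read sequences) between genotypes in the thymus, by 0.0959 between Themis+/+ tissues (reads) and by 0.0398 between Themis-/- tissues (T-to-G put back). CDR3s in 5 or more libraries numbered 5 as nucleotide sequences, 2 if the same member was required and 6 at equal reads. Sharing between genotypes was 1.062% and 1.18% in LN and 3.25% and 2.71% in the thymus, as nucleotide sequences and with the same member, because fewer sequences match under those definitions.

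Leaving out 1 library at a time, the family's genotype change in the thymus ran from -0.42 to 0.061 and the interaction from -0.53 to 0.18. Members called ran from 0 to 1 for genotype in LN, tissue in Themis-/- mice and the interaction, each 1 being TRAV4N-4 without Themis-/- LN library 2. TRAJ called ran from 0 to 2 for genotype in LN, 0 to 4 for tissue in Themis-/- mice, 0 to 1 for the interaction and 3 to 6 for TRAJ used less, with 3 without Themis+/+ thymus library 2 or without either Themis-/- thymus library. The hydropathicity difference from other V segments ran from -0.219 to 0.0815. With 113 to 207 family sequences in 3 of the 4 LN libraries, shares of single TRAJ there rest on few sequences.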
